A study of Mus musculus with 9 samples.

Results

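The genes described here are 8 regulators and surface markers of plasma cells, taken by symbol from a table of read counts for 41128 genes in mouse lymphomas. They are the transcription factors Prdm1, Irf4 and Xbp1, the endoplasmic reticulum chaperone Mzb1, and the surface proteins Sdc1, Tnfrsf17, Tnfrsf13b and Cd28. RNA was sequenced from 3 Bcl6 tumors, of genotype IµBcl6 Smc3 wt/wt, and from 6 Smc3/Bcl6 tumors, of genotype IµBcl6 Smc3 wt/-. Mice of both genotypes carried the IµBcl6 allele, which keeps Bcl6 expressed in B cells, and 1 copy of Cγ1-Cre, which acts in B cells during the germinal center reaction. The Smc3/Bcl6 tumor cells would thus keep 1 intact Smc3 allele while other cells of the node would keep both. Ages are not given in the sources used here. The tissue label reads mesenteric lymph node for replicate 1 of each genotype and lymph node for the other tumors. The study, however, gives the mesenteric lymph node as the source of this RNA for both genotypes. Whether the label marks a difference in node is therefore not known. The labels number the tumors within a genotype without saying more about their source, so p-values below measure the spread between these tumors only.

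A plasma cell arises when an activated B cell gives up its B-cell program for a secretory one. Irf4 and Blimp1, the product of Prdm1, drive this switch, Blimp1 silences B-cell genes such as Pax5, and Xbp1, an arm of the unfolded protein response, enlarges the secretory apparatus. Bcl6, the master regulator of the germinal center, represses Prdm1, so enforced Bcl6 holds B cells before this step, and Cd138 (Sdc1), Bcma (Tnfrsf17), Taci (Tnfrsf13b) and Cd28 are surface proteins by which plasma cells are recognized or kept alive.

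All 8 genes passed the filter on low counts, as did 14057 in all, although Tnfrsf17 had only 89 counts over the 9 tumors. Total counts ranged from 10156728 to 17774577 per tumor, and levels are given as CPM, read counts scaled to library size with TMM factors. The B-cell markers Ms4a1 and Cd79a were detected in every tumor, at 276 to 2518 CPM and 277 to 1868 CPM. For Smc3 itself, Bcl6 tumors 1 to 3 had 126, 99.5 and 88.1 CPM, and the Smc3/Bcl6 tumors spanned 27.9 to 111 CPM around a median of 106. The groups overlapped, and gene counts do not show the deleted exon. Smc3/Bcl6 tumor 2, which had the lowest Smc3, stood apart from the other libraries. The Spearman correlation of its level, relative to the other tumors, with exon length was -0.466 over genes, against values between -0.03 and 0.273 in the other 8, so the results that it moved most are also given without it.

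Promoter sequence is shown for 4 of the genes because their levels correlated with each other or with Bcl6 between tumors, as described further on. Of the 8 genes, 6 had an entry in the RefSeq promoter table used (GRCm38.p6), and the 250 bases before the annotated start are printed 5′ to 3′ on the strand of the gene. Capitals mark CCACG or its reverse complement CGTGG, one arm of the endoplasmic reticulum stress response element.
Prdm1, chr10:44458749-44458998, minus strand: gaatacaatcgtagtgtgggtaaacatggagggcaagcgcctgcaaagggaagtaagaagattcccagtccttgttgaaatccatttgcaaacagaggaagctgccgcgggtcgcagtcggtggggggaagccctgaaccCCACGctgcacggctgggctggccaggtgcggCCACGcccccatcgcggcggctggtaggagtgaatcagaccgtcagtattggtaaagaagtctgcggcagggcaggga
Irf4, chr13:30748983-30749232, plus strand: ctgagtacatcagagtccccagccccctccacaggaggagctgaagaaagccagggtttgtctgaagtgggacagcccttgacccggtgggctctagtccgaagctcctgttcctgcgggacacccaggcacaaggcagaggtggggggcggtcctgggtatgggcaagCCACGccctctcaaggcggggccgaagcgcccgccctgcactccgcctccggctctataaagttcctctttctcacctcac
Xbp1, chr11:5520391-5520640, plus strand: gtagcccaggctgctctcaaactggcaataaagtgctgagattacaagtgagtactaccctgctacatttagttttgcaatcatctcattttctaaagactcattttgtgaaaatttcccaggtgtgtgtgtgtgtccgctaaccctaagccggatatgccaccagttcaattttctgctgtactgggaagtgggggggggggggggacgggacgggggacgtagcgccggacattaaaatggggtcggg
Sdc1, chr12:8771146-8771395, plus strand: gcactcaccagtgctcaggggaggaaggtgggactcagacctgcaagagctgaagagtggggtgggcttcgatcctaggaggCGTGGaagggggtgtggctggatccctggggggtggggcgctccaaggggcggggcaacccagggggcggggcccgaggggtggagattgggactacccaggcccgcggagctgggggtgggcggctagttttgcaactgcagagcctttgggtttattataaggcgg

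The Prdm1 entry starts inside the gene as GENCODE draws it (chr10:44437177-44528501), so the window is that of an internal start. The windows of Sdc1 and Irf4 also end past the GENCODE starts of these genes, which are chr12:8771323 and chr13:30749226. CCACG or CGTGG occurred 2 times before Prdm1, once each before Irf4 and Sdc1, and was in none of the windows of Xbp1, Tnfrsf17 and Tnfrsf13b, so that 3 of the 6 windows held it, beside 28.3% of 32851 promoter windows of this length. The element of interferon regulatory factors and Blimp1 (GAAA, any 2 bases, GAAA, searched like the others on both strands) occurred in 1 of the 6 windows, that of Tnfrsf17, against 2.98% of all windows. Neither the composite element of an ETS factor and Irf4 (GGAA, any 2 bases, GAAA) nor TTCNNNGAA, the palindrome shared by Bcl6 and STAT sites, occurred in any of the 6 windows, against 2.30% and 7.02% of all windows. A match describes letters only, and the first 2 of these elements can overlap.

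Levels were first compared between genes per kilobase of exon. Mzb1 was the most abundant, at 765 ± 799 CPM per kilobase (SD, n = 9), and exceeded Tnfrsf13b in 9 of 9 tumors. Tnfrsf13b (181 ± 83.7 CPM per kilobase, SD, n = 9) and Xbp1 (178 ± 88.6 CPM per kilobase, SD, n = 9) were not separated, since Tnfrsf13b was above Xbp1 in 6 of 9 tumors and their mean log2 ratio of 0.01 was far below its SD of 0.81. Irf4 followed at 19.6 ± 7.82 CPM per kilobase (SD, n = 9), below Xbp1 in 9 of 9 tumors. Prdm1 had 9.98 ± 3.71 and Sdc1 had 7.23 ± 3.67 CPM per kilobase (SD, n = 9). Irf4 lay above Prdm1 in 6 of 9 tumors and Prdm1 above Sdc1 in 7 of 9, and both mean log2 ratios (0.95 and 0.55) were within 1 SD of 0 (1.10 and 0.81). Tnfrsf17 at 0.855 ± 1.14 and Cd28 at 0.654 ± 0.718 CPM per kilobase (SD, n = 9) were the lowest, both below Sdc1 on average, and Tnfrsf17 was above Cd28 in 5 of 9 tumors. Of the surface markers, the tumors thus held abundant Tnfrsf13b, which B cells also carry, and little Tnfrsf17, which is found mostly on plasma cells.

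The genotypes were compared to ask whether loss of 1 Smc3 allele altered this program. In edgeR, none of the 8 genes passed the thresholds used in the study (unadjusted p below 0.1 and absolute log2 fold change above 0.56), whereas 302 of 14057 genes, or 2.15%, did. Of the 302, 180 (1.28%) were higher and 122 (0.868%) lower in Smc3/Bcl6 tumors. With an adjusted p below 0.05 the same edgeR fit called 0 of 14057 genes, and with an unadjusted p below 0.05 it called 79 (0.562%), of which 0 were among the 8. At the study's thresholds DESeq2, the package that the study used, called 1 of the 8 (Mzb1) and 443 of 14057 genes. Limma with quality weights called 2 of the 8 (Irf4 and Cd28) and 1644 of 14057 genes. The limma weights ran from 0.125 for Smc3/Bcl6 tumor 2 to 3.30 for Bcl6 tumor 2. At an adjusted p below 0.05 DESeq2 and limma both called 0 genes. The groups of tumors overlapped for all 8 genes, against 0.484% of all genes whose groups did not overlap. Log2 fold changes of Smc3/Bcl6 over Bcl6 were positive for 6 of the 8 genes and negative for Prdm1 and Cd28, with a median of 0.40, beside a median of 0.06 over all genes, of which 8073 were positive. Scaling by library size alone moved the median of all genes to -0.04, and each of the 8 kept its direction. After Benjamini-Hochberg adjustment over all genes, edgeR's quasi-likelihood p was 1 for each of the 8.

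**Figure D1:**
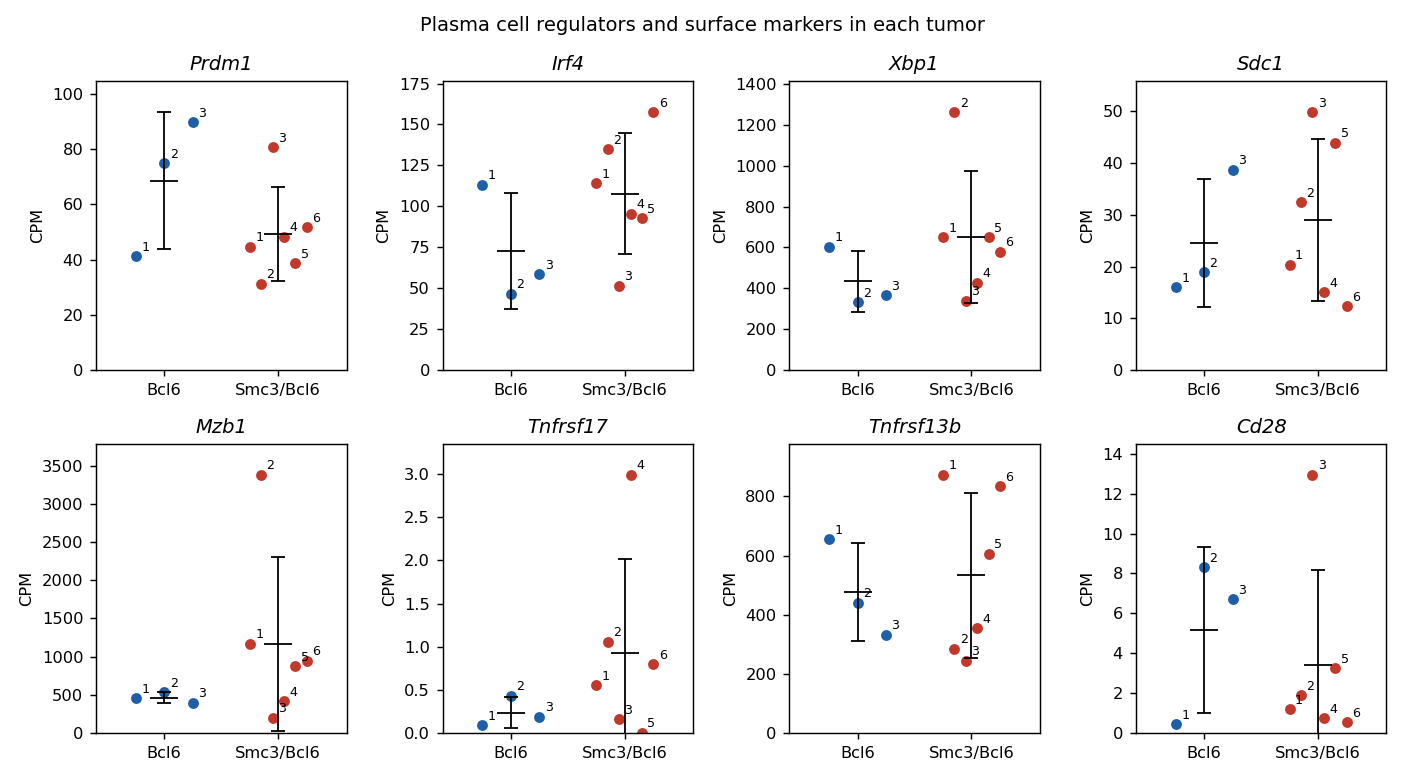
Level of each gene in CPM (y axis from 0) in the 3 Bcl6 tumors (blue) and the 6 Smc3/Bcl6 tumors (red), numbered by replicate; bars show mean ± SD, with lower ends below 0 cut off. The groups overlap in each panel, and Mzb1 and Xbp1 are highest in Smc3/Bcl6 tumor 2.

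Prdm1 (ENSMUSG00000038151.7) reached 41.3, 74.9 and 89.6 CPM in Bcl6 tumors 1, 2 and 3, and the Smc3/Bcl6 tumors spanned 31.2 to 80.7 CPM around a median of 46.4. Bcl6 tumors 2 and 3 and Smc3/Bcl6 tumor 3 were high, and the other 6 tumors lay together at or below 51.7 CPM. The log2 fold change was -0.48 (standard error 0.34, edgeR unadjusted p = 0.185), and the difference of log2 CPM was no larger than the spread by an exact two-sided permutation test (p = 0.262). It passed the thresholds without Bcl6 tumor 1 (-0.80) or without Smc3/Bcl6 tumor 3 (-0.72). In bulk RNA, fewer cells that express a gene and less of its RNA per cell cannot be told apart, for this gene and for those that follow.

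Irf4 (ENSMUSG00000021356.4, chr13:30749226-30766976), which acts at a low level in germinal center B cells and at a high level in plasma cells, reached 113, 46.7 and 58.5 CPM in Bcl6 tumors 1, 2 and 3. The Smc3/Bcl6 tumors ranged from 51.5 to 158 CPM with a median of 105. The low tumors were Bcl6 tumors 2 and 3 and Smc3/Bcl6 tumor 3, that is, those with high Prdm1. A log2 fold change of 0.57 resulted (standard error 0.39, edgeR unadjusted p = 0.181; exact two-sided permutation test, p = 0.238). It passed the thresholds without Bcl6 tumor 1 (0.96), without Smc3/Bcl6 tumor 3 (0.70) or with the tissue label as a covariate (0.75). The mesenteric label covers 1 tumor of each genotype, too few for a comparison within it.

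Xbp1 (ENSMUSG00000020484.13, chr11:5520659-5525893) reached 605, 333 and 367 CPM in Bcl6 tumors 1, 2 and 3, and the Smc3/Bcl6 tumors spanned 340 to 1262 CPM around a median of 614. Again Bcl6 tumors 2 and 3 and Smc3/Bcl6 tumor 3 were the lowest, and Smc3/Bcl6 tumor 2 was the highest. Its log2 fold change of 0.58 (standard error 0.43, edgeR unadjusted p = 0.203; exact two-sided permutation test, p = 0.25) became 0.31 without that tumor, and the remaining 5 of that genotype had 529 ± 139 CPM (SD, n = 5). Gene counts do not separate the spliced, active form of Xbp1 mRNA from the unspliced form.

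Mzb1 (ENSMUSG00000024353.4, chr18:35647267-35649367), a chaperone that helps IgM heavy and light chains to assemble, stayed in a narrow range in Bcl6 tumors 1, 2 and 3, at 455, 533 and 396 CPM. In the Smc3/Bcl6 tumors it ranged from 197 to 3381 CPM with a median of 909, so that both the lowest and the highest tumors were Smc3/Bcl6 and the Bcl6 tumors lay between them. The log2 fold change was 1.34 (standard error 0.76, edgeR unadjusted p = 0.111; exact two-sided permutation test, p = 0.393). Without Smc3/Bcl6 tumor 2 it was 0.66, and the remaining 5 of that genotype had 721 ± 400 CPM (SD, n = 5). Without Smc3/Bcl6 tumor 3 or 4 it passed the thresholds, at 1.51 and 1.46. In the 6 tumors of replicates 1 to 3 it also passed, at 1.71 (edgeR unadjusted p = 0.0905), but once blocked by number it did not, at 1.03 (edgeR unadjusted p = 0.24). With an offset for exon length and GC content it was 0.95, and on the corrected log2 scale Smc3/Bcl6 tumor 2 still had the highest level, 10.65 log2 CPM.

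Sdc1 (ENSMUSG00000020592.9, chr12:8771323-8793715), the heparan sulfate proteoglycan Cd138, reached 16.05, 18.95 and 38.7 CPM in Bcl6 tumors 1, 2 and 3, and the Smc3/Bcl6 tumors spanned 12.3 to 49.9 CPM around a median of 26.4. Bcl6 tumor 3 and Smc3/Bcl6 tumors 2, 3 and 5 had 32.5 CPM or more, and the other 5 tumors had 20.4 CPM or less, with both genotypes on either side. Between genotypes the log2 fold change was 0.24 (standard error 0.51, edgeR unadjusted p = 0.645; exact two-sided permutation test, p = 0.798). Leaving out single tumors moved it between -0.06 and 0.73, so it had no settled direction.

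Tnfrsf17 (ENSMUSG00000022496.5, chr16:11313812-11320074), a receptor for April and Baff that sustains plasma cells, gave 1, 8 and 2 counts in Bcl6 tumors 1, 2 and 3, and 0 to 45 counts in the Smc3/Bcl6 tumors. Expressed as CPM, this was 0.0882, 0.432 and 0.189 in the Bcl6 tumors, and 0 to 2.99 around a median of 0.677 in the other genotype. Smc3/Bcl6 tumor 4 alone gave 45 of the 89 counts, and the count of 0 in Smc3/Bcl6 tumor 5 allows up to 3 counts, or 0.236 CPM. The fitted log2 fold change of 1.88 (standard error 1.25, edgeR unadjusted p = 0.163; exact two-sided permutation test, p = 0.369) became 0.21 (standard error 1.04) in limma with quality weights. It was 2.14, past the thresholds, without Smc3/Bcl6 tumor 5, which had the count of 0. Counts of both genotypes overlapped, and so few reads limit the precision of each value.

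Tnfrsf13b (ENSMUSG00000010142.7, chr11:61126755-61149372), a second receptor for these ligands, reached 656, 440 and 332 CPM in Bcl6 tumors 1, 2 and 3, and the Smc3/Bcl6 tumors spanned 244 to 873 CPM around a median of 481. Bcl6 tumor 1 and Smc3/Bcl6 tumors 1, 5 and 6 were the high tumors, and the rest lay at or below 440 CPM. Its log2 fold change was 0.16 (standard error 0.47, edgeR unadjusted p = 0.736; exact two-sided permutation test, p = 0.94). In the 6 tumors of replicates 1 to 3, blocked by number, it was -0.26, the opposite direction. The antisense gene Gm12269 overlaps Tnfrsf13b and had 41 counts in all.

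Cd28 (ENSMUSG00000026012.2, chr1:60716800-60773359), a costimulatory receptor of T cells that plasma cells also carry, reached 0.441, 8.32 and 6.71 CPM in Bcl6 tumors 1, 2 and 3, and the Smc3/Bcl6 tumors spanned 0.533 to 12.95 CPM around a median of 1.54. Counts ranged from 5 to 248, and the high tumors were the same 3 as for Prdm1. The log2 fold change was -0.59 (standard error 1.08, edgeR unadjusted p = 0.599; exact two-sided permutation test, p = 0.619), with the block it was 0.06, and without Smc3/Bcl6 tumor 3 it was -1.82, past the thresholds. No gene of the 8 had a permutation p below 0.05, against 119 of 14057 genes, or 0.847%, and the smallest p that the 84 splits of 9 tumors allow is 0.0119.

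**Figure D2:**
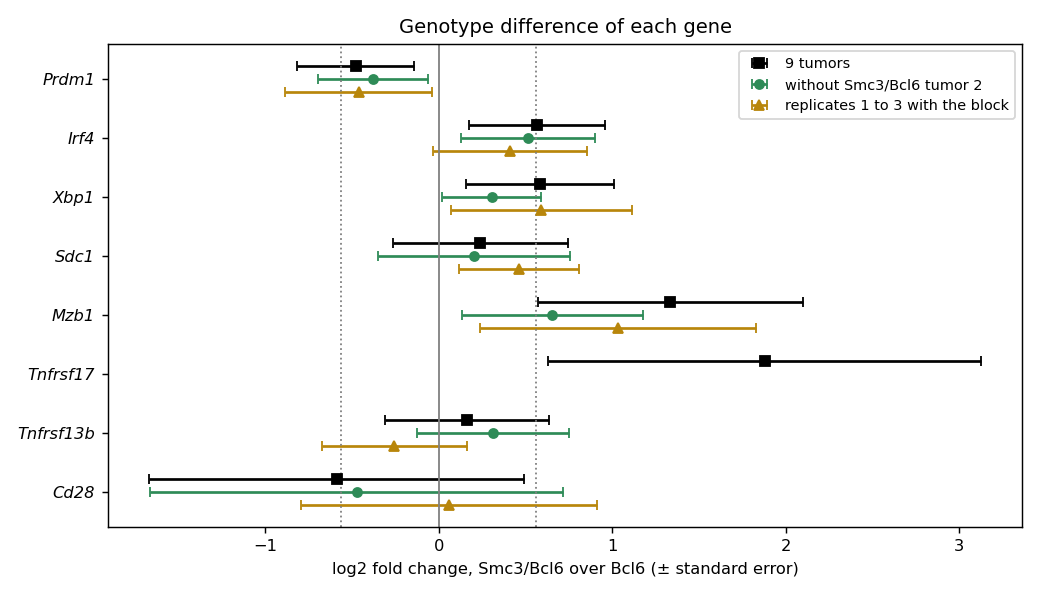
Log2 fold change of Smc3/Bcl6 over Bcl6 tumors for each gene (x axis, ± standard error) in 9 tumors (black), without Smc3/Bcl6 tumor 2 (green) and in replicates 1 to 3 with the replicate block (yellow); dotted lines mark ± 0.56. Tnfrsf17 was not in the smaller fits, Mzb1 falls from 1.34 to 0.66 without Smc3/Bcl6 tumor 2, and Tnfrsf13b and Cd28 change sign with the block.

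Related genes were read from lists by function. Of 134 tested, 3 passed the thresholds, beside 2.15% of all genes. With the replicate block 8 of 131 passed, beside 299 of 13360 genes. Of 10 immunoglobulin constant and joining chain genes, 1 was past the thresholds, Ighe, the constant region of IgE, and Ighd and Iglc1 were not analysed here. Ighe rose from 28.5 ± 10.1 CPM (SD, n = 3) to 108 ± 49.8 CPM (SD, n = 6), a log2 fold change of 1.92 (standard error 0.49, edgeR adjusted p = 1). The list had 9 positive values and a median of 0.76, or 0.46 without Smc3/Bcl6 tumor 2. Ighm, the IgM heavy chain and the most abundant of the list, reached 21174, 6169 and 9942 CPM in Bcl6 tumors 1, 2 and 3 and spanned 7098 to 66172 CPM in the other genotype. Its log2 fold change was 1.01 (standard error 0.78), and Igkc, the kappa constant region, had 0.52 (standard error 0.65). Smc3/Bcl6 tumor 2 held the 66172 CPM, and without it the remaining 5 had 16832 ± 10010 CPM (SD, n = 5) of Ighm, beside 12428 ± 7805 CPM (SD, n = 3) in Bcl6 tumors. The log2 fold changes were then 0.46 (standard error 0.64) for Ighm and 0.10 (standard error 0.52) for Igkc.

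Of 24 other plasma cell genes, 0 passed the thresholds upward and 1 downward, and 20 values were positive with a median of 0.24, or 18 with a median of 0.15 without Smc3/Bcl6 tumor 2. The one that fell was Cd93, a surface glycoprotein that plasma cells use for persistence in bone marrow and that myeloid and endothelial cells also express, at -1.33 (standard error 0.55, edgeR adjusted p = 1) and with 499 counts in all. Its Bcl6 mean of 6.98 ± 5.17 CPM (SD, n = 3) rested on Bcl6 tumor 3, without which the log2 fold change was -0.53 and no longer past the thresholds. Limma with quality weights called 6 of the 24, which were Cd93, Fcrl5, Bhlha15, Creb3l2, Ly6c2 and Eaf2. With the replicate block, 13 of the 24 values were positive, with a median of 0.08. Txndc5, a protein disulfide isomerase, had 0.05 (standard error 0.51), which turned to -0.10 without Smc3/Bcl6 tumor 2, and Igj, the immunoglobulin joining chain, had 0.78 (standard error 0.78). Of 16 tested targets of Xbp1 in the endoplasmic reticulum, 0 passed in either direction, and 14 were positive with a median of 0.35. Smc3/Bcl6 tumor 2 had the highest summed level of this list, 15022 CPM, and without it 10 were positive with a median of 0.10. The median summed level was lower in Smc3/Bcl6 tumors (5799 CPM) than in Bcl6 tumors (6202 CPM). Hspa5, the chaperone BiP, had -0.10 (standard error 0.35), and Pdia4, another disulfide isomerase, had 0.57 (standard error 0.44). In limma with quality weights Pdia4 had 0.85 and was the 1 gene called of these 16, whose median was then 0.09.

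The B-cell identity factors, among them Pax5 and Bach2, had 0 of 13 genes past the thresholds and a median of 0.13, and the most abundant of them, Irf8 and Ets1, had 0.07 (standard error 0.43) and -0.13 (standard error 0.54), both of which changed sign without Smc3/Bcl6 tumor 2 (-0.010 and 0.083). The ligands, receptors and mediators around Tnfrsf17 and Tnfrsf13b had 0 of 12 past the thresholds and a median of 0.07, or 0.16 without Smc3/Bcl6 tumor 2. Among them Tnfrsf13c, the Baff receptor of mature B cells, had equal means of 423 ± 262 CPM (SD, n = 3) and 423 ± 90.7 CPM (SD, n = 6). For Mcl1, the survival protein on which plasma cells depend, the log2 fold change was 0.05 (standard error 0.27). The genes around Cd28 had 0 of 9 past the thresholds and a median of 0.06, or 0.10 without that tumor. Of these, the T-cell kinase Lck had -0.64 (standard error 0.76) and the exchange factor Vav1 had 0.04 (standard error 0.22).

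The level of each gene was then set against Ighm in the same tumor, a measure of immunoglobulin output, with Pearson's r of log2 CPM over 9 tumors and an exact permutation p. Of the 8 genes, 3 (37.5%) reached an unadjusted p below 0.05, as did 13.0% of all other genes, and 0 of the 32 relations computed in this and the next comparisons had an adjusted p below 0.05. Xbp1 and Irf4 were higher in tumors with more Ighm, and Prdm1 was lower. For Xbp1, r was 0.75 (exact permutation p = 0.0189, adjusted p = 0.332) and Spearman's rho was 0.65 (exact permutation p = 0.0666). For Irf4, r was 0.74 (exact permutation p = 0.0268, adjusted p = 0.35) and rho was 0.77 (exact permutation p = 0.0214). For Prdm1, r was -0.70 (exact permutation p = 0.0386, adjusted p = 0.374) and rho was -0.58 (exact permutation p = 0.108).

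These 3 relations rested on a few tumors. Without the 2 tumors farthest from the median of Ighm, Bcl6 tumor 2 and Smc3/Bcl6 tumor 2, r was 0.32 for Xbp1, 0.62 for Irf4 and -0.45 for Prdm1, with exact permutation p-values of 0.458, 0.15 and 0.316. Within the 6 Smc3/Bcl6 tumors, r was 0.66, 0.62 and -0.63, and none had an exact permutation p below 0.05. Without Smc3/Bcl6 tumor 2 alone, r was 0.48 (exact permutation p = 0.222), 0.72 (exact permutation p = 0.059) and -0.54 (exact permutation p = 0.155). Scaling by library size alone gave 0.60 for Xbp1 (exact permutation p = 0.0887) and 0.57 for Irf4 (exact permutation p = 0.109), and the length and GC correction gave 0.63 for Xbp1 (exact permutation p = 0.0726) and -0.59 for Prdm1 (exact permutation p = 0.1), none of them below 0.05.

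Mzb1, whose product serves IgM assembly, had an r with Ighm of 0.65 (exact permutation p = 0.0549), and Tnfrsf17 had 0.63 (exact permutation p = 0.066). Cd28 had -0.66 (exact permutation p = 0.0539), which became -0.84 (exact permutation p = 0.0325) without the 2 farthest tumors. Sdc1 had -0.35 (exact permutation p = 0.359) over all 9 tumors and -0.88 (exact permutation p = 0.025) without those 2. Tnfrsf13b had 0.01 (exact permutation p = 0.98), with no settled direction.

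Against Bcl6, whose counts join the transgene with the endogenous gene, 2 of the 8 genes (25%) had an unadjusted p below 0.05, beside 15.8% of all other genes. Bcl6 itself reached 647, 286 and 175 CPM in Bcl6 tumors 1, 2 and 3, and the Smc3/Bcl6 tumors spanned 155 to 659 CPM. The 155 CPM was in Smc3/Bcl6 tumor 2, where the length and GC correction moved Bcl6 from 7.28 to 7.80 log2 CPM. Sdc1 was lower where Bcl6 was higher, with r = -0.86 (exact permutation p = 0.0061, adjusted p = 0.26) and rho = -0.80 (exact permutation p = 0.0138). Its r was -0.79 (exact permutation p = 0.0478) without Bcl6 tumor 1 and Smc3/Bcl6 tumor 6, the tumors farthest from the median of Bcl6. Within the 6 Smc3/Bcl6 tumors it was -0.88 (exact permutation p = 0.0417), and leaving out single tumors gave values between -0.91 and -0.82. With scaling by library size alone r was -0.63 (exact permutation p = 0.0717), above the 0.05 level. Cd28 followed the same direction, with r = -0.74 (exact permutation p = 0.0295, adjusted p = 0.28), which became -0.50 (exact permutation p = 0.254) without those 2 tumors and -0.54 (exact permutation p = 0.138) by library size alone.

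Prdm1, the direct target of Bcl6 repression, showed no such relation, with r = -0.14 (exact permutation p = 0.707), and its sign turned under several settings. Irf4, which in turn acts on Bcl6, had r = 0.44 (exact permutation p = 0.228), or 0.75 (exact permutation p = 0.0417) without Smc3/Bcl6 tumor 2, and Tnfrsf13b had r = 0.65 (exact permutation p = 0.061). Xbp1, Mzb1 and Tnfrsf17 had r of -0.10, -0.18 and 0.24, with exact permutation p-values of 0.809, 0.656 and 0.538, and without that tumor Xbp1 and Mzb1 had 0.47 and 0.31.

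**Figure D3:**
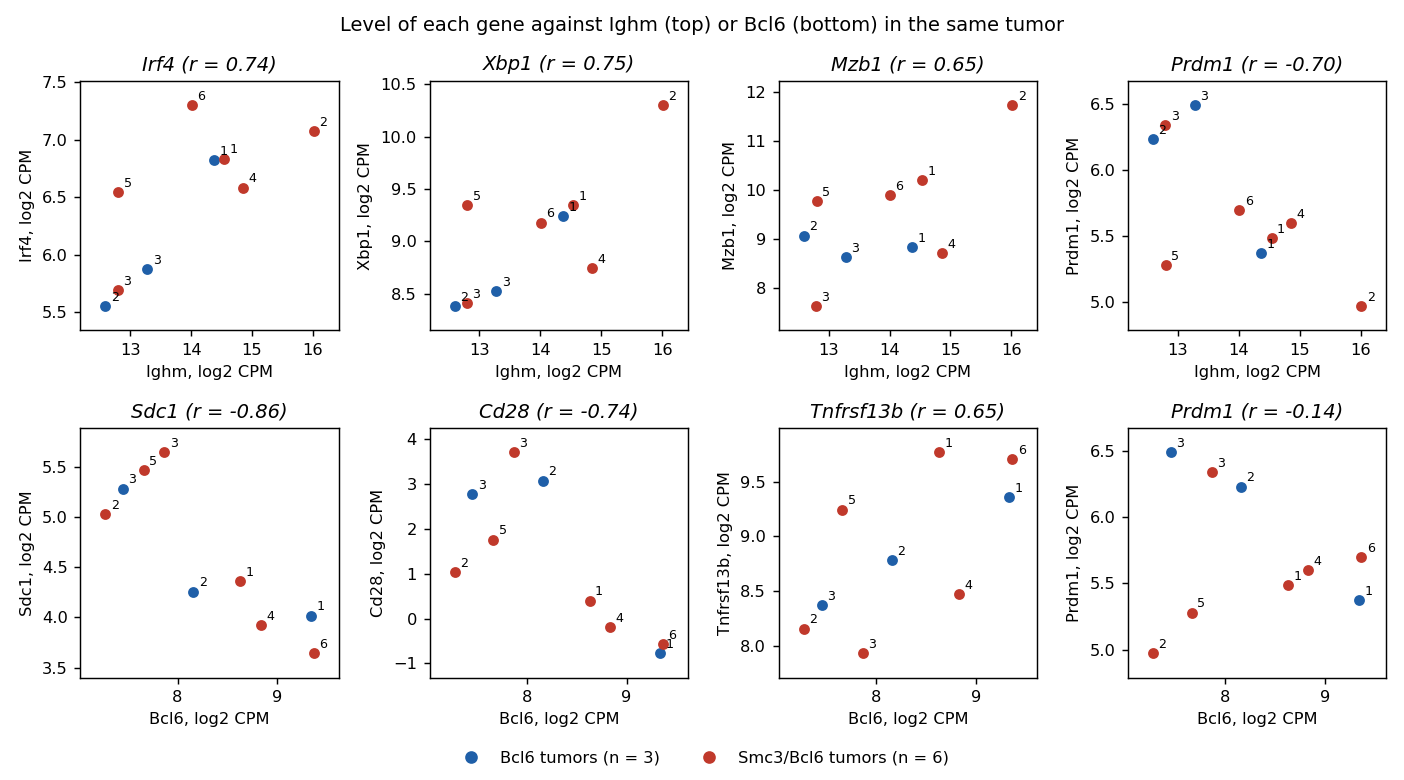
Log2 CPM of a gene (y axis) against log2 CPM of Ighm (upper row) or Bcl6 (lower row) in the same tumor, for 3 Bcl6 tumors (blue) and 6 Smc3/Bcl6 tumors (red), numbered by replicate, with Pearson's r in each title. Sdc1 lies lower as Bcl6 rises (r = -0.86), Prdm1 does not follow Bcl6 (r = -0.14), and Smc3/Bcl6 tumor 2 is the farthest point to the right against Ighm.

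Between the 8 genes, 8 of 28 pairs had an exact permutation p below 0.05, 4 with a positive and 4 with a negative r, and 0 had an adjusted p below 0.05. A share of 11.1% of all genes reached such a p with Prdm1, 8.29% with Irf4, 22.5% with Xbp1, 20.9% with Mzb1, 5.47% with Sdc1, 4.98% with Tnfrsf17, 9.67% with Tnfrsf13b and 9.36% with Cd28. Xbp1 and Mzb1 varied together (r = 0.90, exact permutation p = 0.0021, adjusted p = 0.0849; rho = 0.73), and within the Smc3/Bcl6 tumors r was 0.98. Without Smc3/Bcl6 tumor 2 it was 0.76 (exact permutation p = 0.0356). Prdm1 and Xbp1 ran opposite (r = -0.90, exact permutation p = 0.0005, adjusted p = 0.146; rho = -0.90). Their r was -0.91 without the 2 tumors farthest from the median of Prdm1, and -0.87 over the 6 tumors other than the 3 with the highest Prdm1.

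Irf4 followed Xbp1 (r = 0.80, exact permutation p = 0.0081) and Mzb1 (r = 0.68, exact permutation p = 0.0401), and ran opposite to Prdm1 (r = -0.82, exact permutation p = 0.0099) and Cd28 (r = -0.87, exact permutation p = 0.0037). The same 3 tumors, Bcl6 tumors 2 and 3 and Smc3/Bcl6 tumor 3, held the 3 highest values of Prdm1 and Cd28 and the 3 lowest values of Irf4 and Xbp1. Over the other 6 tumors, r of Irf4 was 0.41 with Xbp1, 0.50 with Mzb1, -0.36 with Cd28 and 0.05 with Prdm1, but leaving out the tumors at the ends of both scales lowers r by itself. Leaving out single tumors kept Irf4 with Xbp1 between 0.75 and 0.88, with Cd28 between -0.92 and -0.83 and with Prdm1 between -0.93 and -0.77, and the call of Prdm1 was lost by library size alone (r = -0.59, exact permutation p = 0.0936). Irf4 with Mzb1 ranged from 0.57 to 0.75, and its call was lost without Bcl6 tumor 3 (0.66), without Smc3/Bcl6 tumor 1, 2, 3 or 5 (0.66, 0.66, 0.57 and 0.68) and by library size alone (0.51). Prdm1 and Mzb1 had r = -0.75 (exact permutation p = 0.0169), which was -0.62 (exact permutation p = 0.102) without Smc3/Bcl6 tumor 2, -0.67 (exact permutation p = 0.0698) without Smc3/Bcl6 tumor 3 and -0.64 (exact permutation p = 0.0725) with the length and GC correction. Sdc1 and Cd28 had r = 0.75 (exact permutation p = 0.0273), and 0.96 (exact permutation p = 0.0056) over those 6. Its call was lost without Bcl6 tumor 1 (0.72) or Smc3/Bcl6 tumor 3, 4 or 6 (0.65, 0.72 and 0.69).

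**Figure D4:**
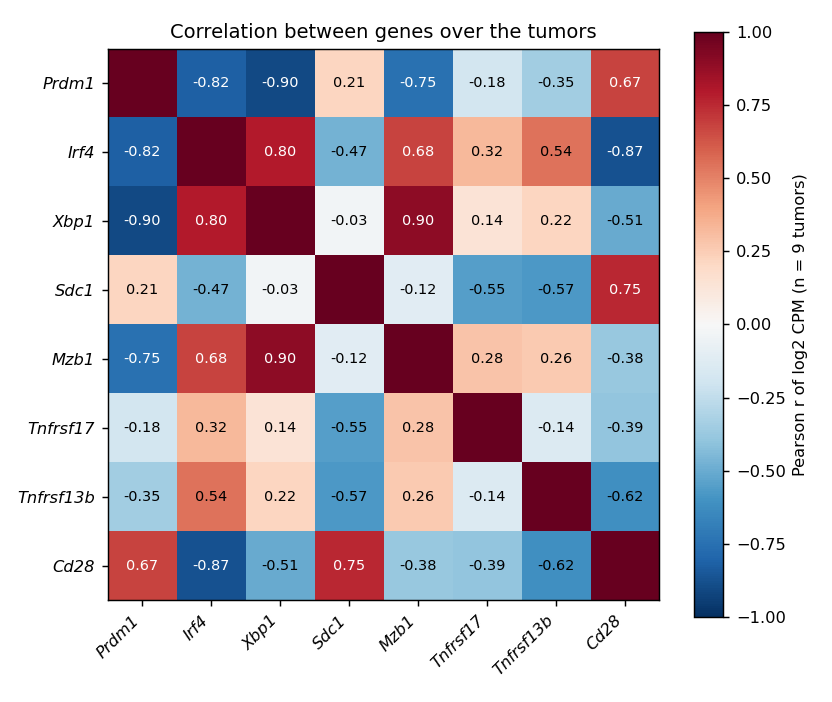
Pearson's r of log2 CPM over 9 tumors between each pair of genes, from -1 (blue) to 1 (red), with the value written in each cell. Prdm1 is opposite to Irf4, Xbp1 and Mzb1 (-0.82, -0.90 and -0.75), which are positive with each other.

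Markers of other cells in the node correlated with some of these genes. The summed level of 16 T-cell markers, all detected in each tumor, ranged from 493 to 4281 CPM in the Bcl6 tumors and from 153 to 4292 CPM in the Smc3/Bcl6 tumors. It was 3289 CPM or more in Bcl6 tumors 2 and 3 and Smc3/Bcl6 tumors 2 and 3. Cd28, itself a T-cell gene, had r = 0.81 with this level (exact permutation p = 0.015, adjusted p = 0.209), and Tnfrsf13b had -0.79 (exact permutation p = 0.0191, adjusted p = 0.234). These 2 of 8 genes (25%) stood beside 15.5% of all genes, and without Smc3/Bcl6 tumor 2 Irf4 and Xbp1 also had a p below 0.05. For Prdm1 and Irf4 the values were 0.37 (exact permutation p = 0.309) and -0.64 (exact permutation p = 0.0716). Between genotypes, 16 of 16 T-cell genes had a negative log2 fold change, beside 5984 of 14057 genes in all. Their median was -0.66, or -1.19 without Smc3/Bcl6 tumor 2, and 0 passed the thresholds. Limma with quality weights called all 16 (median -2.83), and the replicate block called 3 of 16 (median -0.55). The limma weights were highest for Bcl6 tumor 2 (3.30) and Smc3/Bcl6 tumor 6 (2.61) and lowest for Smc3/Bcl6 tumor 2 (0.125). Without Bcl6 tumor 2 only 10 of 16 were negative (median -0.22), as in replicates 1 to 3 without the block (median -0.06).

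The 11 macrophage markers summed to between 447 and 7889 CPM in the Bcl6 tumors and between 271 and 8397 CPM in the Smc3/Bcl6 tumors, and 1 of them was at 0 in 1 tumor. The 4 tumors with 7527 CPM or more, Bcl6 tumor 3 and Smc3/Bcl6 tumors 2, 3 and 5, were the 4 with the highest Sdc1. Sdc1 had r = 0.69 with this level (exact permutation p = 0.0443, adjusted p = 0.434) and 0.97 (exact permutation p = 0.0006) without Bcl6 tumor 1 and Smc3/Bcl6 tumor 1. The p rose above 0.05 by library size alone (0.66, exact permutation p = 0.0525) and without any 1 of the Bcl6 tumors or Smc3/Bcl6 tumor 2, 3 or 5 (0.64 to 0.72). Cd28 had 0.68 (exact permutation p = 0.0457, adjusted p = 0.439) and Tnfrsf13b had -0.76 (exact permutation p = 0.0167, adjusted p = 0.296). These 3 of 8 genes (37.5%) stood beside 11.0% of all genes. The part of T cells and macrophages in the relations of Sdc1 and Cd28 to Bcl6 was not tested.

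Other marker lists were low or had summed levels that overlapped between the genotypes. Of 3 epithelial genes tested, 1 was past the thresholds, Epcam, at 0.77 (standard error 0.37, edgeR adjusted p = 1), and the 6 listed summed to between 15.7 and 43.4 CPM. Epcam did not pass by library size alone (0.68), with the length and GC offset (0.74), with the replicate block (0.56), or without Bcl6 tumor 2 (0.71), Bcl6 tumor 3 (0.66) or Smc3/Bcl6 tumor 1 (0.57). The 6 tested genes of stroma and endothelium had a median of 0.48, and the 8 listed summed to between 19.7 and 330 CPM. With the replicate block that median was -0.60, and 0 of 5 were positive. The 7 genes of plasmacytoid dendritic cells had a median of 0.55 and summed to between 335 and 975 CPM, and the 11 macrophage genes had a median of 0.49, or 0.23 without Smc3/Bcl6 tumor 2, where Cd163 passed the thresholds. In the main fit none of these lists had a gene past the thresholds other than Epcam. DESeq2 also called Mrc1, Cd163, Klk1 and Cox6a2, the replicate block called Mrc1, Emr1 and Csf1r, and further settings called others. All 7 plasmacytoid genes were positive, with 0 negative. Smc3/Bcl6 tumors 1, 2, 5 and 6 were the highest in their sum and also in Mzb1. A relation of that sum to the 8 genes was not tested.

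**Figure D5:**
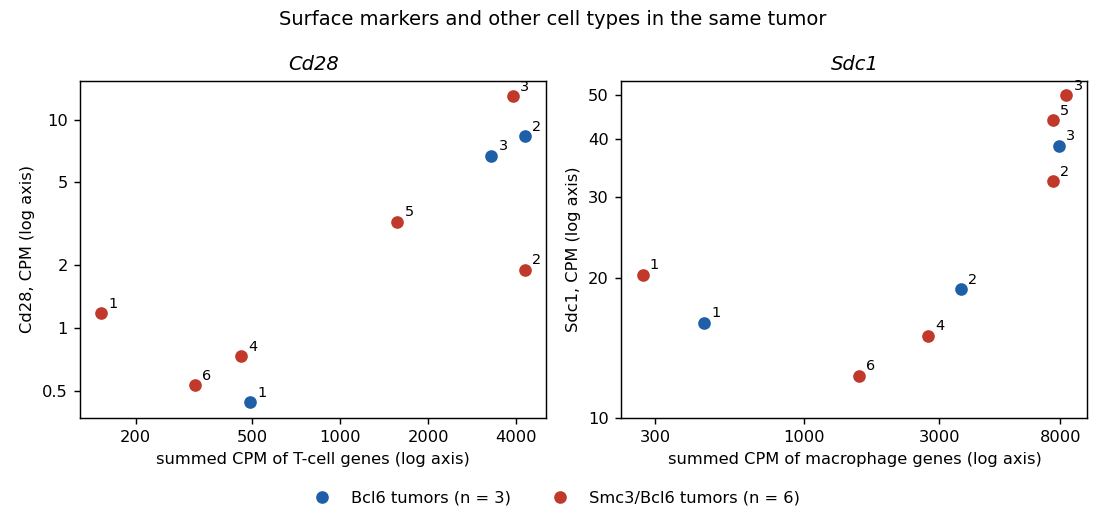
Cd28 against the summed CPM of 16 T-cell genes (left) and Sdc1 against the summed CPM of 11 macrophage genes (right), both axes logarithmic, in 3 Bcl6 tumors (blue) and 6 Smc3/Bcl6 tumors (red), numbered by replicate. The 4 tumors highest in macrophage genes are the 4 highest in Sdc1, and Smc3/Bcl6 tumor 2 has much T-cell signal but 1.90 CPM of Cd28. Levels in that library fell with exon length, and Cd28 has 6122 bases of exon. Its value there moves from 1.03 to 1.59 log2 CPM with the length and GC correction. Bcl6 tumors 2 and 3 and Smc3/Bcl6 tumor 3 have 3.07, 2.74 and 3.71 on that corrected scale. The part of exon length in the low Cd28 value was not tested.

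For each gene, those most like it in pattern over the 9 tumors are given as a description, chosen by the highest r of log2 CPM among genes with a mean of at least 10 CPM. Prdm1 was followed most closely by Spata13, Parp10 and Limk1 (r from 0.95 to 0.96), and Irf4 by Cnpy3, Ipmk and 2210414B05Rik (0.92 to 0.93). Xbp1 was followed by Bmyc, Minpp1 and Dnajc7 (0.96 to 0.99), and Mzb1 by Mzt2, Wdr83 and Mfsd3 (0.95 to 0.96). Sdc1 had Vill at 0.96, and then Clec4e and Gpnmb, both known from macrophages, at 0.90. Tnfrsf17 had Acp6, Dhrs11 and Slc25a51 (0.94 to 0.95), and Tnfrsf13b had Eif2ak1, Tbl1xr1 and Hdac5 (0.94 to 0.96). Cd28 had Rora, a nuclear receptor of T cells and innate lymphoid cells, at 0.97, with Il15ra and Ikbke at 0.96.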

How the data were processed

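RNA-seq counts of 9 mouse lymphomas, 3 Bcl6 and 6 Smc3/Bcl6, were analyzed, 1 library per tumor. The authors prepared libraries with the TruSeq RNA kit, ran the nf-core RNA-seq pipeline with STAR on mm10 and Gencode transcripts, and deposited gene counts from featureCounts without normalization. The strand setting is not given in the sources used here, and the submitters' processing notes name R 4.0.2 and DESeq2 1.28.1. Positions, exon lengths and GC content came from GENCODE M21 (GRCm38), in which 97.9% of gene identifiers were found.

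The genotype fit used edgeR 4.0.16 under R 4.3.3, with TMM factors, a filter on low counts, the quasi-likelihood test and Benjamini-Hochberg adjustment over 14057 genes. Thresholds followed the study, which used DESeq2, with unadjusted p below 0.1 and absolute log2 fold change above 0.56. Log2 CPM used a prior count of 2. Exact two-sided permutation tests ran over the 84 splits of the tumors and, for correlations, over 362880 orders, with adjustment over all genes. The tests were checked on simulated data. Related genes were named where past the thresholds or among the 2 most abundant of a list. The genes and lists were chosen with earlier results of these data known. Deviations of same-numbered tumors from the genotype means correlated at 0.443, 0.113 and 0.155 over genes for replicates 1, 2 and 3, each above 0.1, so the shared numbers of the labels were used as a block over these 6 tumors in an alternative. Alternatives were DESeq2 1.42.0, limma 3.58.1 with quality weights, 2 further normalizations, no filter, a tissue covariate, a length and GC offset, the replicate block and each tumor left out. Relations to T-cell and macrophage levels, pairs of genes and the subset of 6 tumors were added after the values were seen. Results that need 1 B-cell marker are not reported here.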

Additional observations from a re-analysis of the deposited data

How the results depend on the processing

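No gene of the 8 passed the thresholds in 12 of 21 alternatives. Among these 12 are 2 stricter cutoffs on the main fit, an adjusted and an unadjusted p below 0.05. Their counts of 0 followed from the main result and say nothing about stability. DESeq2 called 1 (Mzb1), limma with quality weights 2 (Cd28 and Irf4), no filter 1 (Mzb1), the tissue covariate 1 (Irf4) and replicates 1 to 3 without the block 1 (Mzb1). Leaving out single tumors gave 0 to 4, with 4 (Prdm1, Irf4, Mzb1 and Cd28) without Smc3/Bcl6 tumor 3, 2 (Prdm1 and Irf4) without Bcl6 tumor 1, and 1 without Smc3/Bcl6 tumor 4 (Mzb1) or 5 (Tnfrsf17). Each kept its direction there. Of all genes tested, 159 to 1644 passed over the alternatives, against 302 of 14057 in the main fit. Without Smc3/Bcl6 tumor 3, where 4 of the 8 passed, 624 of 13830 genes did. Without Bcl6 tumor 1 it was 366 of 14637 genes. Without Smc3/Bcl6 tumor 4 or 5 it was 339 of 13762 and 288 of 13843. Of 134 related genes tested, 3 passed, beside 2.15% of all genes. DESeq2 called 7 and limma with quality weights 30, beside 443 and 1644 of 14057 genes. Without the filter 7 of 139 passed (1388 of 26445 genes), and with the tissue covariate 5 of 134 (322 of 14057 genes). In replicates 1 to 3, with 131 tested, 8 passed with the block and 12 with the block and the length and GC offset. Without the block 7 passed there. Over all 13360 genes these 3 fits called 299, 319 and 256. Single tumors left out gave 2 to 13 related genes (13 of 134 without Smc3/Bcl6 tumor 3). The pairing by replicate number left 0 of the 7 genes it could test past the thresholds (Tnfrsf17 fell below the filter), as over 9 tumors, but in the same 6 tumors Mzb1 passed without the block (1.71) and not with it (1.03). A permutation p below 0.05 was reached by 0 of the 8 in 13 of 13 alternatives, of which the sign permutation within pairs could not reach it.

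The log2 fold change turned for Tnfrsf13b with the replicate block (-0.26), with the block and the length and GC offset (-0.38) and in replicates 1 to 3 without the block (-0.039), and for Cd28 likewise (0.057, 0.29 and 0.025). Single tumors left out gave -0.043 to 0.41 for Tnfrsf13b and -0.063 to 0.73 for Sdc1.

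Genes related to Ighm, 3 in all, numbered 0 in the Smc3/Bcl6 tumors only, 0 in the 6 tumors other than Bcl6 2, Bcl6 3 and Smc3/Bcl6 3, 0 with the replicate block, 1 by Spearman (Irf4) and 1 to 4 with single tumors left out, with 1 without Bcl6 tumor 2 (Tnfrsf17), Smc3/Bcl6 tumor 2 (Cd28) or Smc3/Bcl6 tumor 3 (Xbp1). Those related to Bcl6, 2 in all, numbered 1 by library size (Tnfrsf13b), 1 each in the Smc3/Bcl6 tumors only, by Spearman and without the 2 farthest tumors (Sdc1), 0 with the block and 1 to 3 with single tumors left out, where Sdc1 alone remained without Bcl6 tumor 1 or 3 or Smc3/Bcl6 tumor 1 or 6. The block leaves 3 differences within pairs, for which the smallest p is 0.25, so its counts of 0 say nothing about stability. Those related to T-cell level, 2 in all, numbered 0, 1 and 1 in the Smc3/Bcl6 tumors only, by Spearman and without the 2 farthest, and 1 to 4 with single tumors left out (4 without Smc3/Bcl6 tumor 2, 1 without Smc3/Bcl6 tumor 1). Those related to macrophage level, 3 in all, numbered 1, 0 and 1 by library size, in the Smc3/Bcl6 tumors only and without the 2 farthest, and 1 to 3 with single tumors left out, with Tnfrsf13b alone without any 1 of the Bcl6 tumors or Smc3/Bcl6 tumor 3 or 5. Pairs of genes, 8 in all, numbered 3 in the 6 tumors and 5 to 11 with single tumors left out, 5 without Smc3/Bcl6 tumor 3.

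The sign of r turned for Tnfrsf13b with Ighm by library size (-0.14), in the Smc3/Bcl6 tumors only (-0.12), with genotype means removed (-0.00049), with the block (-0.62), in the 6 tumors (-0.63) and with single tumors left out (-0.23 to 0.41), and for Sdc1 with Ighm with the block (0.79). Against Bcl6 it turned for Prdm1 by library size (0.18), in the Smc3/Bcl6 tumors only (0.32), by Spearman (0.067), without the 2 farthest (0.012), with the block (0.63) and with single tumors left out (-0.54 to 0.10). It turned for Xbp1 and Mzb1 with the length and GC correction (0.11 and 0.13) and with single tumors left out (-0.26 to 0.47 and -0.36 to 0.31), and for Irf4, Tnfrsf17 and Cd28 with the block (-0.77, -0.92 and 0.44). Prdm1 with Irf4 had 0.055 in the 6 tumors. The causes were not tested. Scaling by library size alone or the length and GC correction took 3 of the relations to Ighm, 2 of those to Bcl6, 2 of those to macrophage level and 3 of the pairs above 0.05. Counts from 0 and 5 upward limit the precision of Tnfrsf17 and Cd28.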
